A study of Mus musculus with 2 samples.

Results

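The lipins and the enzymes of triglyceride synthesis were followed in precancerous liver of mice that carried a hepatocyte-specific Pik3ca transgene and were either knockout (Pik3caTg;Kdm3aKO) or wild type (Pik3caTg;Kdm3aWT) for Kdm3a. Pik3ca encodes a catalytic subunit of phosphoinositide 3-kinase, and Kdm3a a demethylase of histone H3 lysine 9. Both mice carried the transgene, so no liver without it was compared, and the ages, the sex, the number of animals behind an array and the promoter driving the transgene are not given in the labels. The members are 10 genes: Gpam, Agpat2, Agpat3, Lpin1, Lpin2, Lpin3, Mogat1, Dgat1, Dgat2 and Mttp, of 18193 genes that a probe set names alone. They are a list of names, and every probe set that the platform annotation assigns to a single member was taken, which gave 21 probe sets. Of these, 20 passed the filter on low signals, and all 10 genes were represented among them.

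Triglyceride is built on glycerol-3-phosphate in the endoplasmic reticulum. An acyltransferase adds a fatty acid to make lysophosphatidate, another adds the next to make phosphatidate, a lipin removes the phosphate to leave diacylglycerol, and a diacylglycerol acyltransferase adds the last fatty acid. Diacylglycerol can also be made from monoacylglycerol, and in liver the finished triglyceride is either stored in droplets or loaded onto apolipoprotein B and secreted as very low density lipoprotein (VLDL).

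Each genotype was measured on 1 Affymetrix array, so 2 arrays were compared, no test was possible, and the number of arrays limits the precision. Values are MAS5 signals, the brightness of a probe set on a linear scale, and a ratio is log2 of the Kdm3a knockout signal over the Kdm3a wild-type signal. A gene was called higher or lower at a difference of at least 2-fold. The only repeat measurement was that of several probe sets for a gene on the same array: their log2 ratios had an SD of 0.45 over 4958 genes, which does not cover differences between animals. The Kdm3a probe set read 61.6 on the knockout array and 720 on the wild-type array. The position of this probe set relative to the deletion was not analysed here, which limits it as a check of the labels. The brightest Pik3ca probe set read 1107 on the knockout array and 1069 on the wild-type array (0.05 in log2). Every further Pik3ca probe set that passed the filter was dimmer on the knockout array, by log2 values between -0.54 and -0.14. Whether these probe sets read the transgene was not analysed here. Markers of hepatocytes were bright on both arrays: Alb, the serum albumin gene, read 53356 on the knockout array and 44118 on the wild-type array.

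Lpin1 was the member that differed most, and it was the sole member called higher on the Kdm3a knockout array. Mogat1 and Lpin3 were called lower, and the remaining 7 members lay within 2-fold. The enzymes on either side of the lipin step, Gpam, Agpat2, Agpat3, Dgat1 and Dgat2, were among these 7, with Gpam the farthest from 0 at -0.63. Of all 11693 genes kept by the filter, 12.8% were past 2-fold in either direction, 3.83% higher and 8.96% lower. Of the 10 members, 3 were past 2-fold, 1 higher and 2 lower. The median log2 ratio of the members was -0.11, against -0.02 over all kept genes. At 1.5-fold, 1 member was higher and 3 were lower, the third being Gpam, beside 11.1% and 17.4% of all kept genes. At 3-fold, 1 member was higher and 0 were lower, beside 0.872% and 3.5% of all kept genes.

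**Figure D1:**
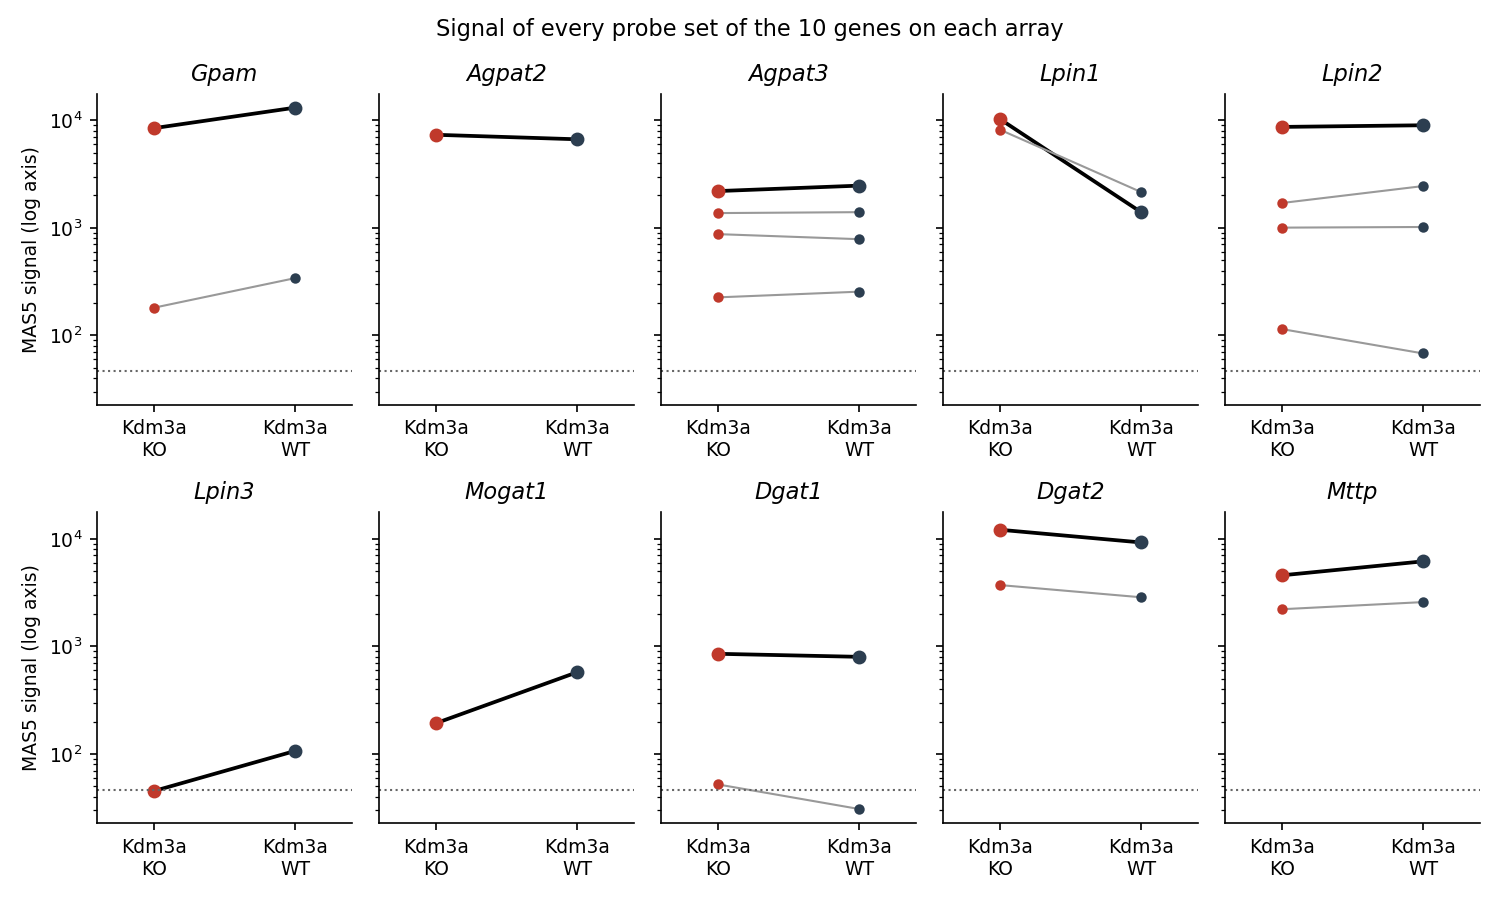
MAS5 signal (log axis) of all 21 probe sets of the 10 genes on the Kdm3a knockout array (left of each panel) and the Kdm3a wild-type array (right). Each line is a probe set, the black line is the brightest of its gene and the dotted line is the floor of 46.5. Both lines of Lpin1 are steep and higher at the knockout end, while those of Mogat1 and Lpin3 are lower there.

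The lipins are phosphatidate phosphatases. Lipin 1 also enters the nucleus, where it is known to act with PPAR-alpha and its coactivator PGC-1alpha on genes of fatty acid oxidation, and mice that lack it (the fatty liver dystrophy strain) have fatty liver as newborns and little fat tissue. The brightest Lpin1 probe set read 10278 on the Kdm3a knockout array and 1397 on the wild-type array, a log2 ratio of 2.88 or 7.36-fold. Its other probe set read 8186 on the knockout array and 2148 on the wild-type array, a log2 ratio of 1.93 or 3.81-fold. Both probe sets were thus above 2-fold in the same direction, but they differed in size by more than the SD between probe sets of a gene. The brightest has a name ending (_a_at) that marks possible matches to further transcripts, which can all be of the same gene. Without probe sets of such name endings Lpin1 stood at 1.93, the value of its other probe set.

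Among all kept genes, 7 had a higher ratio than Lpin1, 1 of them with a wild-type value raised to the floor. Of the members, 7 (Lpin1 among them) were in the brightest 20% of kept genes. In that group of 2339, 4.49% were called higher and 4.4% lower, and Lpin1 had the highest ratio by its brightest probe set. At 1.93, the ratio of its other probe set, it would lie below others of the group, such as Etnppl (2.64) and Pttg1 (2.59). Of the 4958 genes read by several kept probe sets, 1.03% had every probe set at least 2-fold higher. By the smallest of its probe sets' ratios, Lpin1 stood below 7 of these genes.

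**Figure D2:**
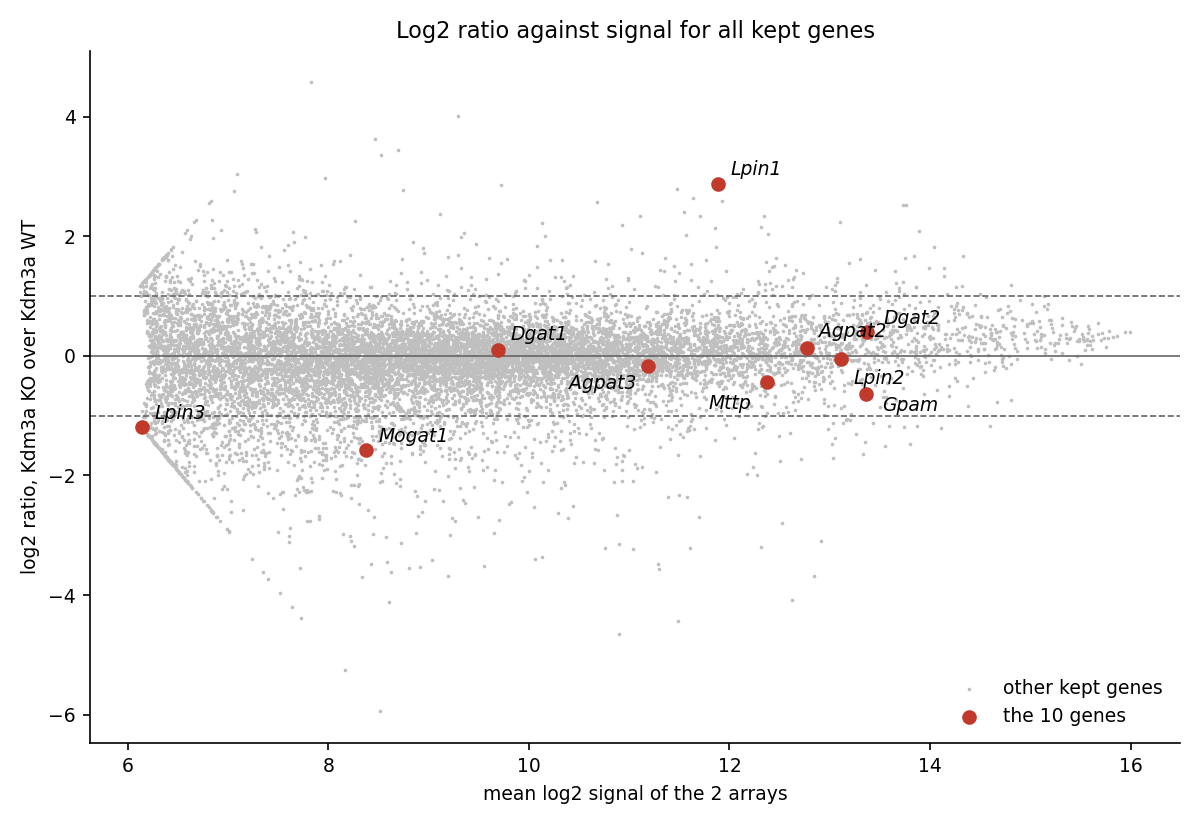
Log2 ratio of Kdm3a knockout over Kdm3a wild type (vertical axis) against the mean log2 signal of the 2 arrays (horizontal axis) for 11693 kept genes, each by its brightest probe set. Grey points are genes, red points the 10 named genes, and dashed lines mark 2-fold. Lpin1 stands at 2.88, above the other genes of like or higher signal, and the 7 members between the dashed lines lie within the band of the other genes.

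Lipin 2 is described as a main lipin of the liver. The brightest Lpin2 probe set read 8675 on the Kdm3a knockout array and 8987 on the wild-type array, a log2 ratio of -0.05. A further probe set read 1701 on the knockout array and 2446 on the wild-type array (-0.52), and another read 1004 on the knockout array and 1018 on the wild-type array (-0.02). The dimmest read 115 on the knockout array and 67.9 on the wild-type array (0.75). Lpin2 therefore lay within 2-fold by each of its 4 probe sets, which went both ways.

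Lipin 3, the remaining member of the family, is known for its expression in intestine. Its probe set read 45.1 on the Kdm3a knockout array, just under the floor of 46.5, and 107 on the wild-type array, which makes it at least 2.29-fold lower. Its mean signal of 75.8 was close to the filter of 73.7, and a gene at the floor on the knockout array could pass that filter through its wild-type signal alone, so it could not have lain within 2-fold. The call of Lpin3 rests on a dim probe set, and a higher floor, at the 60th percentile, brought its log2 ratio to 0.

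The promoters of the 3 members past 2-fold are shown because these are the genes whose values differed most between the arrays. They are the 250 bases before an annotated start in RefSeq, on build GRCm38.p6, 5′ to 3′ on the strand of the gene. Of the 10 members, 8 had a promoter in that table, with 12 starts, and a gene can have starts that are not shown here. Capitals mark matches, on either strand, to CACGTG (E-box), CCAAT (the motif of NF-Y), TGACGTCA (cyclic AMP response element), TGANTCA (AP-1), GGGCGG (GC box), AGGTCA (nuclear receptor half-site), TATAAA (the core promoter motif) or TCACCCCAC (sterol response element), and to the palindromic glucocorticoid response element. The Lpin1 window is chr12:16610967-16611216 on the minus strand, the Mogat1 window chr1:78510810-78511059 on the plus strand, and the Lpin3 windows chr2:160880420-160880669 and chr2:160887918-160888167 on the plus strand.
Lpin1: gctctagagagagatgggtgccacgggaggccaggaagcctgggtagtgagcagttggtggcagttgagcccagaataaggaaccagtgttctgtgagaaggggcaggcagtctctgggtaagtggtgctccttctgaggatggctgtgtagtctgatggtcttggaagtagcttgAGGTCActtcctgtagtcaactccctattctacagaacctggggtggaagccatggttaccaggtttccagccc
Mogat1: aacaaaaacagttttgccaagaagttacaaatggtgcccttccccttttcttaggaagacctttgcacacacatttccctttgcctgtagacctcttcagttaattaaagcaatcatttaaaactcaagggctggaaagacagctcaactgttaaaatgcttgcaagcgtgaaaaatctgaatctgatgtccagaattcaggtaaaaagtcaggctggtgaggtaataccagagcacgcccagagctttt
Lpin3 upstream start: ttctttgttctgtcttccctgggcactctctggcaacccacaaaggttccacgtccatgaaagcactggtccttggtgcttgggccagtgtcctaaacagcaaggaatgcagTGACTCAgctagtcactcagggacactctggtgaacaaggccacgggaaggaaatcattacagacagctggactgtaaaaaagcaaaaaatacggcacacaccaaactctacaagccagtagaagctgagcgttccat
Lpin3 downstream start: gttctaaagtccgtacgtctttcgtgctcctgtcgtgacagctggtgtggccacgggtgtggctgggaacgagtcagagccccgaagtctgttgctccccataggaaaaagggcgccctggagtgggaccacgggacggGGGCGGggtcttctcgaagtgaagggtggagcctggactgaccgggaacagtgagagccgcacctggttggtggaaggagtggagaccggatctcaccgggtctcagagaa
The Lpin1 window held a nuclear receptor half-site 74 to 69 bases before the start, a motif found in 14% of the 32851 windows of that length in the table. The upstream Lpin3 window held an AP-1 motif 138 to 132 bases before the start, which 6.75% of windows hold, and the downstream one a GC box 111 to 106 bases before it, which 32.7% hold. The Mogat1 window had no match to these letters. None of the 4 windows matched the E-box (6.02% of windows), the NF-Y motif (33.8%), the cyclic AMP response element (1.55%) or the core promoter motif (12.4%). The glucocorticoid and sterol response elements, in 0.00913% and 0.496% of windows, were not matched in them either.

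Mogat1 joins a fatty acid to monoacylglycerol, the route to diacylglycerol that does not pass through a lipin, and is known to be raised in fatty liver of mice. Its probe set read 193 on the Kdm3a knockout array and 575 on the wild-type array, a log2 ratio of -1.58 or 2.98-fold lower. Of all kept genes, 3.56% had a lower ratio. Mogat2, the isozyme of the intestine, had signals of 13.7 on the knockout array and 162 on the wild-type array, at least 3.47-fold lower after the floor. Mogat2 was the sole gene that a probe set named alone among the 6 listed for other monoacylglycerol and diacylglycerol acyltransferases, so the rest of that list was not read here. Like Lpin3, Mogat2 passed the filter through its wild-type signal.

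The acylation steps before the lipins differed less. Gpam encodes the mitochondrial glycerol-3-phosphate acyltransferase that insulin is known to induce in liver. Its brightest probe set read 8440 on the Kdm3a knockout array and 13104 on the wild-type array, a log2 ratio of -0.63. The other read 181 on the knockout array and 341 on the wild-type array (-0.92). Both were lower on the knockout array without reaching 2-fold, and 15.9% of all kept genes had a lower ratio than the brightest of them.

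Agpat2, whose loss causes lipodystrophy with fatty liver in mice and people, and Agpat3 encode acyltransferases that turn lysophosphatidate into phosphatidate. The Agpat2 probe set read 7331 on the Kdm3a knockout array and 6657 on the wild-type array (0.14). The brightest Agpat3 probe set read 2196 on the knockout array and 2469 on the wild-type array (-0.17). The 4 Agpat3 probe sets ranged from -0.18 to 0.16, so they lay near 0 and differed among themselves by less than the SD between probe sets. The ratio of Agpat3 changed sign, to 0.16, when probe sets with such name endings were left out.

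The acyltransferases that finish triglyceride are Dgat1 and Dgat2, which share the reaction without being related in sequence. The brightest Dgat2 probe set read 12134 on the Kdm3a knockout array and 9242 on the wild-type array, a log2 ratio of 0.39. The other Dgat2 probe set read 3713 on the knockout array and 2858 on the wild-type array (0.38). They thus gave nearly the same difference, below 2-fold. The kept Dgat1 probe set read 852 on the knockout array and 799 on the wild-type array (0.09), and the other, with 52.0 on the knockout array and 30.7 on the wild-type array, did not pass the filter.

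Mttp encodes the microsomal transfer protein that loads triglyceride onto apolipoprotein B. Its brightest probe set read 4571 on the Kdm3a knockout array and 6170 on the wild-type array (-0.43). The other read 2213 on the knockout array and 2579 on the wild-type array (-0.22). Both were lower on the knockout array, by less than the SD between probe sets of a gene. Over the 7 members within 2-fold, ratios ran from -0.63 for Gpam to 0.39 for Dgat2, a span that held 65.6% of all kept genes.

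**Figure D3:**
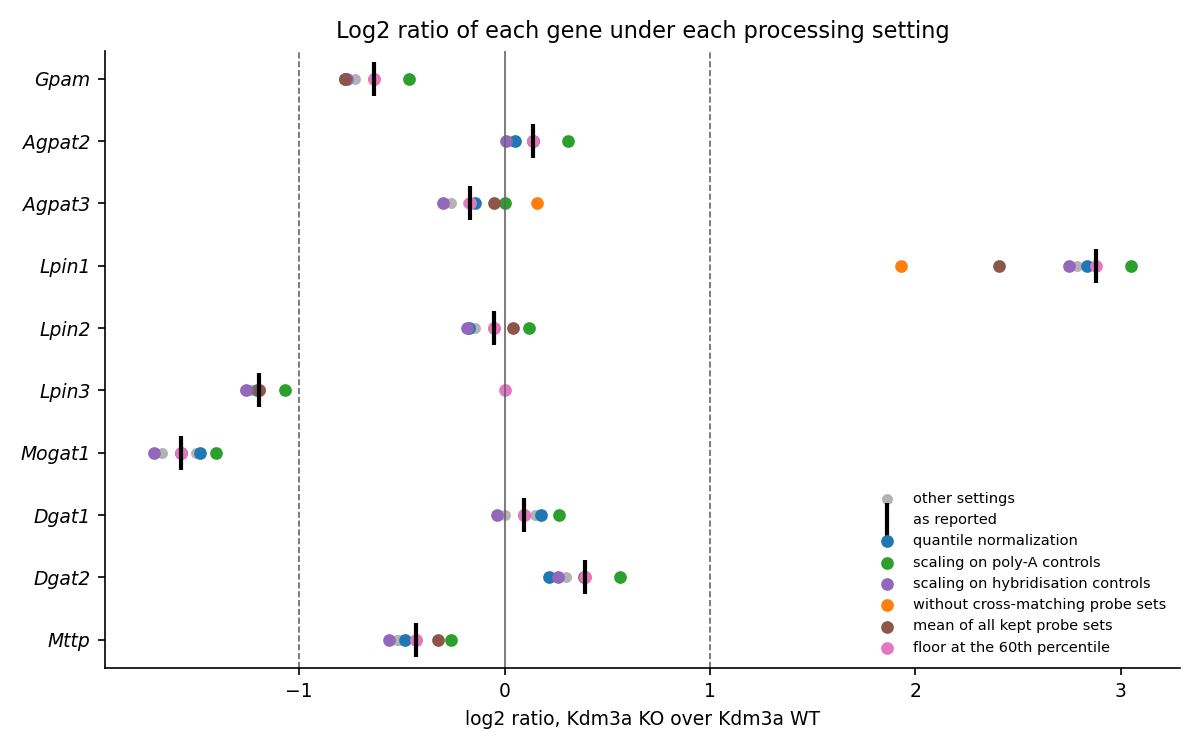
Log2 ratio of Kdm3a knockout over Kdm3a wild type (horizontal axis) of each of the 10 genes as reported (black bar) and under the other settings of scaling, filter, floor and choice of probe set (points, coloured for 6 of them). Dashed lines mark 2-fold. Lpin1 spans 1.93 to 3.05 and stays right of the 2-fold line, Mogat1 spans -1.71 to -1.41, and Lpin3 reaches 0 under the highest floor.

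The other genes of the pathway were read from 9 lists with 108 distinct genes, of which 93 were kept, 5 called higher and 11 lower, or 5.38% and 11.8%, near the 3.83% and 8.96% of all kept genes. Their median log2 ratio was 0.08. Among other acyltransferases of glycerol-phosphate and lysophosphatidate, 1 of 8 kept genes was higher, 0 were lower and the median was -0.07. The higher gene was Agpat1, at 195 on the Kdm3a knockout array and 93.7 on the wild-type array (1.06), but its other probe set stood at -0.04, and it lay within 2-fold (0.97) after centring on array medians. Gpat4, an endoplasmic reticulum enzyme that shares its reaction with Gpam, read 1947 on the knockout array and 980.5 on the wild-type array (0.99). It was just inside 2-fold, and just past it (1.05) after quantile normalization. Gpat3 (-0.81) and Gpat2 (-0.65), on the same list, went the other way, also within 2-fold.

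Of 6 kept genes of glycerol-3-phosphate supply, 0 were higher and 1 was lower, with a median of -0.39. The lower gene was the aquaglyceroporin Aqp7, a glycerol channel of fat tissue, at 13.9 on the Kdm3a knockout array and 172 on the wild-type array (at least 3.69-fold lower). Like Lpin3, it passed the filter through its wild-type signal. Its name ending marks possible matches to further transcripts, and 0 genes of this list were lower with such probe sets left out. Gpd1 (-0.89) and Gpd2 (-0.97), the glycerol-3-phosphate dehydrogenases of cytosol and mitochondria, lay just inside 2-fold, and with scaling to the hybridisation spikes they stood at -1.02 and -1.11, which made 3 of the 6 lower. The 3 probe sets of Gpd1 ran from -0.89 to 0.39. Of 7 other phosphatidate phosphatases and lipin activators, 0 were higher and 1 was lower, with a median of -0.24. This was Plpp2, a lipid phosphate phosphatase of the plasma membrane, at 1589 on the knockout array and 3247 on the wild-type array (-1.03), or -0.99 after quantile normalization. Ctdnep1 (-0.24) and Cnep1r1 (-0.25), which form the phosphatase known to activate lipins, lay within 2-fold.

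Phosphatidate and diacylglycerol also feed the synthesis of phospholipids. Of 15 kept genes of these branches, 0 were higher and 1 was lower, with a median of -0.27. Pgs1, which makes phosphatidylglycerol phosphate on the way to cardiolipin, read 150.5 on the Kdm3a knockout array and 381 on the wild-type array (-1.34). Its 4 probe sets lay between -1.45 and -0.23. The brightest has a name ending that marks possible matches to further transcripts, and 0 genes of this list were lower with such probe sets left out. Of 8 kept genes that supply acyl-CoA, 1 was higher and 0 were lower, with a median of -0.08. Slc27a5, a bile acid and fatty acid CoA ligase of hepatocytes, read 29261 on the knockout array and 13150.2 on the wild-type array (1.15), or 0.95 after quantile normalization.

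In VLDL assembly, the step at which Mttp acts, 0 of 17 kept genes were higher and 1 was lower, with a median of 0.08. The lower gene was Apobec1, which edits the apolipoprotein B message, at 443 on the Kdm3a knockout array and 996 on the wild-type array (-1.17). It was just inside 2-fold when arrays were scaled to the poly-A spikes. Its only kept probe set has a name ending that marks possible matches to further transcripts. With such probe sets left out, 0 genes of this list were lower. Apob itself had a log2 ratio of 0.40 by its brightest probe set.

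**Figure D4:**
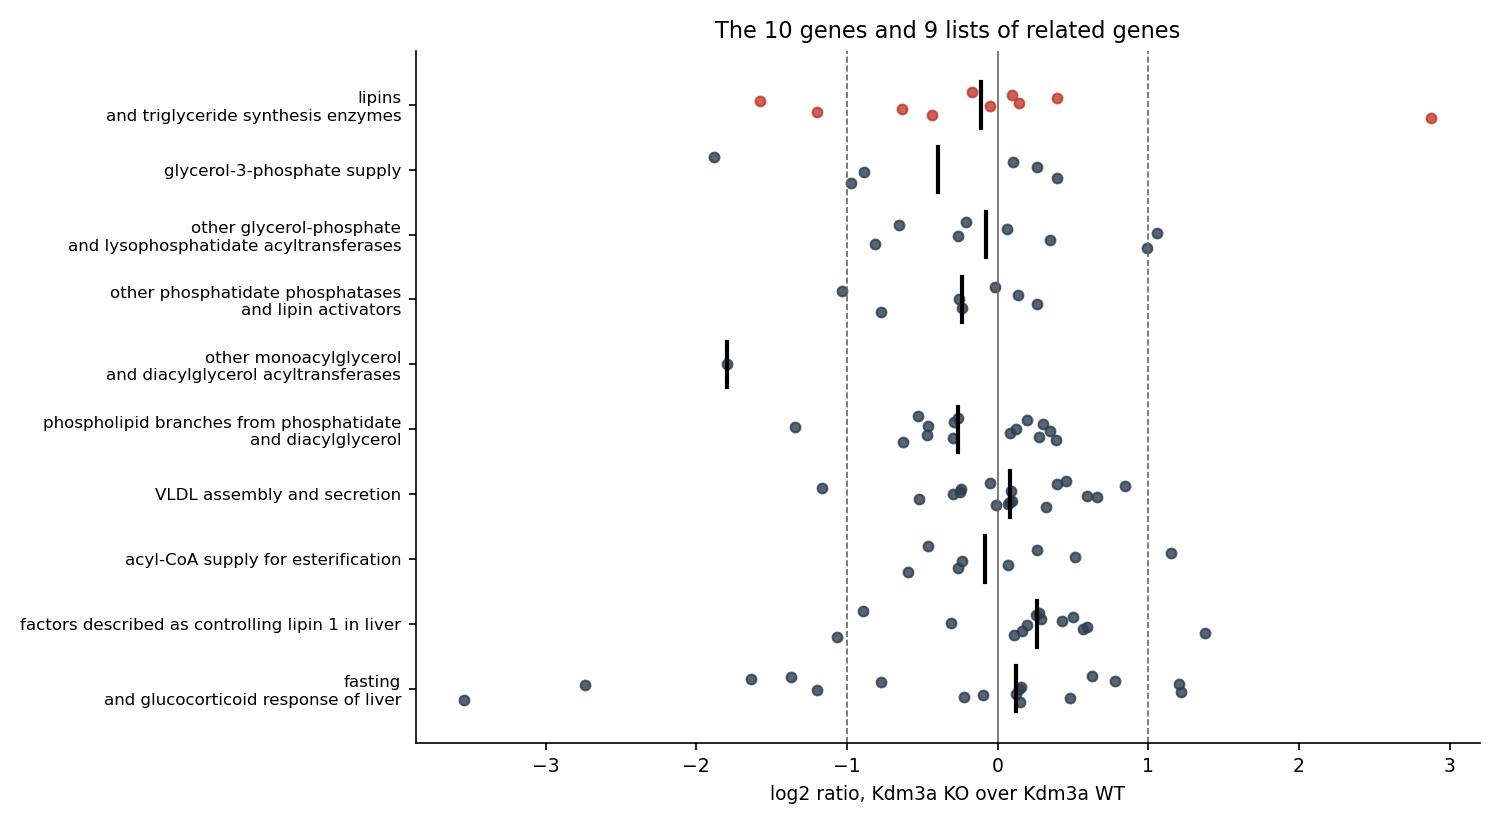
Log2 ratio of Kdm3a knockout over Kdm3a wild type (horizontal axis) of the 10 genes (red) and of the kept genes of 9 lists of related genes (dark). Each point is a gene by its brightest probe set, black bars are medians, dashed lines mark 2-fold, and vertical spread within a row has no meaning. Lpin1, at 2.88, lies right of every gene on the lists, and the fasting and glucocorticoid list reaches farthest to the left, to -3.54.

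Lpin1 is known to be induced in liver by fasting and glucocorticoids. Among 14 kept genes described as controlling lipin 1 in liver, 1 was higher and 1 was lower, with a median of 0.26. The higher gene was the cyclic AMP coactivator Crtc2, at 247 on the Kdm3a knockout array and 94.9 on the wild-type array (1.38), by a probe set whose name ending marks possible matches to further transcripts. The other Crtc2 probe set stood at 0.59, and 0 genes of this list were higher with the mean of probe sets or without such probe sets. The lower gene was Nfatc4, at 60.2 on the knockout array, under the filter, and 126 on the wild-type array (-1.06). It was kept through its wild-type signal, and stood at -0.89 when scaled to the poly-A spikes. Genes lower on this list also numbered 0 with the filter at the 70th percentile, the floor at the 60th, or without probe sets of such name endings. With scaling to the hybridisation spikes they numbered 2. Ppargc1a, which encodes PGC-1alpha, read 783 on the knockout array and 519 on the wild-type array (0.59) by its brightest probe set. That was the lowest of its 5 kept probe sets, which ran from 0.59 to 1.48.

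Genes of the fasting and glucocorticoid response went both ways: of 17 kept, 2 were higher and 5 lower, with a median of 0.12. The higher genes were Tat, which breaks down tyrosine (1.22), and G6pc, the glucose-releasing phosphatase (1.20). The lower genes were the hormone Fgf21 (-3.54), the pyruvate dehydrogenase kinase Pdk4 (-2.74), the metallothioneins Mt2 (-1.63) and Mt1 (-1.20), and Igfbp1 (-1.37). The probe sets of Mt1 ran from -1.20 to 0.02.

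With predicted genes of unknown function passed over, the kept genes nearest to Lpin1 in the plane of log2 signal on both arrays were Pttg1, Etnppl, Agxt, Cyp2c23 and Ces1e. They lay at distances of 0.21 to 0.58 and had log2 ratios of 2.14 to 2.64. Pttg1 encodes securin, a regulator of chromosome separation. Etnppl, a phospho-lyase of phosphoethanolamine, read 7930 on the Kdm3a knockout array and 1273 on the wild-type array, and Agxt, the alanine-glyoxylate aminotransferase, 7487 on the knockout array and 1481 on the wild-type array. Cyp2c23 and Ces1e belong to families with close relatives. Those nearest to Mogat1 were Tspan17, Lpxn, C3ar1, Mcm6 and Kif22, at distances of 0.01 to 0.04. Likeness over 2 arrays amounts to a like level and a like ratio and no more.

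Markers of other cells differed between the arrays beside these values, and in whole tissue fewer cells of a type and less RNA per cell cannot be told apart. The counts of markers below are to be read beside the 3.83% of all kept genes called higher and the 8.96% called lower. Of the hepatocyte markers, 10 of 10 were above 0 in log2 ratio (7 once arrays were quantile-normalized or loess-adjusted), with 2 higher, 0 lower and summed signals of 530576 on the Kdm3a knockout array and 400094 on the wild-type array. The higher genes were Tat and, just past 2-fold, Hpd, which lay within 2-fold under 4 of 5 other scalings, down to 0.74. Of 3 kept adipocyte markers, 2 were lower, Fabp4 (-2.80) and Cidec (-1.69), with summed signals of 3764 on the knockout array and 19607 on the wild-type array. Most of these sums was Fabp4, at 2240 on the knockout array and 15591 on the wild-type array. Its 3 kept probe sets ran from -2.80 to -0.98. The defining adipocyte genes Adipoq (17.0 on the knockout array and 15.1 on the wild-type array) and Lep (5.53 on the knockout array and 4.14 on the wild-type array) were below the floor on both arrays, while Retn, also dropped by the filter, read 11.6 on the knockout array and 60.7 on the wild-type array. Of 6 skeletal muscle markers 1 was kept and called higher, Ckm, at 153 on the knockout array and 74.3 on the wild-type array (1.05), or 0.95 after centring on array medians. The other kept Ckm probe set stood at -0.38. Mylpf, at 130 on the knockout array and 16.2 on the wild-type array, just missed the filter, and passed it and was called higher with scaling to the poly-A spikes.

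Cholangiocyte markers were lower in 5 of 5 kept genes, beside 8.96% of all kept genes, and in 3 when arrays were scaled to the poly-A spikes. Their summed signals were 6475 on the Kdm3a knockout array and 14504 on the wild-type array. Of these 5, Krt19, Krt7 and Sox9 read 63.4 to 73.1 on the knockout array, under the filter, and were kept through their wild-type signals. Epcam was lower by its brightest probe set (-1.75), while its other kept probe set stood at -0.08. Stellate cell and fibroblast markers were lower in 5 of 8, with sums of 14939 on the knockout array and 31693 on the wild-type array. Of these lower genes, Des read 63.2 on the knockout array, under the filter, and was kept through its wild-type signal of 219. Macrophage markers were lower in 4 of 8 (3 when scaled to the poly-A spikes) and higher in 1, with sums of 22746 on the knockout array and 38712 on the wild-type array. The higher gene was Marco, at 279 on the knockout array and 13.9 on the wild-type array (at least 6.01-fold higher), kept through its knockout signal. Clec4f (0.73) was also above 0 in log2 ratio, and the other 6 were below it. Of 3 kept enterocyte markers, 1 was lower (Apoa4, -1.17, not called with scaling to the poly-A spikes) and 0 were higher, with sums of 27095 on the knockout array and 50417 on the wild-type array. These sums were nearly all Apoa4 and Fabp2, which liver also expresses, and the intestinal genes Vil1 and Lct were below the floor on both arrays. The part of these cell types in the values of Lpin1, Mogat1 and Lpin3 was not tested.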

How the data were processed

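Per the labels' protocols, each array received biotin-labelled cRNA made from 250 ng of total liver RNA. The authors' deposited unit is the intensity of a probe set, not logged, and MAS5 is the tool in the submitters' processing notes. Settings, detection calls and the build used in that step were not given in the sources used here. The values themselves had a mean of 500.004 on both arrays once the outer 2% at each end was trimmed. Groups came from the genotype labels.

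Of 45101 probe sets, 64 were controls and 34945 named 1 gene in the platform annotation. Current names came from a RefSeq table, which held the gene IDs of 34741 of them. Signals were raised to a floor of 46.5, the 40th percentile of both arrays pooled, and ratios that use the floor are given as "at least". Probe sets with a mean signal of 73.7 (the median) or more were kept, 19800 in all, and a gene took its brightest. Named in the text are all members with their probe sets, Kdm3a, Pik3ca, list genes past 2-fold, and the 5 genes nearest to a member past 2-fold and above the floor on both arrays. Predicted genes of unknown function, recognised by their names, and genes at the floor on either array were passed over among the nearest genes. Some genes within 2-fold (Alb, Gpat2, Gpat3, Gpat4, Ctdnep1, Cnep1r1, Apob, Ppargc1a, Clec4f), with Gpd1, Gpd2 and the markers Adipoq, Lep, Retn, Mylpf, Vil1 and Lct, were added after their values were seen. The members, lists, settings and markers were chosen with earlier results of these data known. Settings also tried were other scalings, filters, floors, fold thresholds, the mean of probe sets, and leaving out probe sets named _s_at, _x_at, _a_at or _f_at. These are called cross-matching here for short, although an _a_at probe set can match transcripts of its own gene only. The calling of genes was run on simulated data with planted changes larger than the threshold and little noise. That checks the code only and does not cover differences between animals. Python 3.11.15, pandas 2.3.3, numpy 2.4.6 and statsmodels 0.14.6 were used.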

Additional observations from a re-analysis of the deposited data

How the results depend on the processing

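No paired analysis was possible because each genotype has 1 array. Other scalings, filters, floors, probe-set rules and fold thresholds were tried, 14 in all. Scaling on the poly-A controls moved the median log2 ratio of all kept genes to 0.15, and scaling on the hybridisation controls moved it to -0.16. Lower genes made up 70.1% of all genes past 2-fold, against 53.7% on the poly-A controls, 80.5% on the hybridisation controls and 77.9% after centring on array medians. Lpin1 stayed past 2-fold in all 12 settings of scaling, filter, floor and probe sets, from 1.93 without cross-matching probe sets, through 2.40 for the mean of its probe sets, to 3.05 on the poly-A controls. Mogat1 stayed between -1.71 and -1.41, and Gpam, Mttp, Dgat2 and Agpat2 kept their sign, in the same settings. Dgat1 was not kept without cross-matching probe sets. A floor at the 60th percentile brought Lpin3 to 0 and a filter at the 70th removed it, so members called lower numbered 1 in both; at 3-fold they numbered 0. The ratios of Lpin2 (-0.18 to 0.12), Agpat3 (-0.30 to 0.16) and Dgat1 (-0.04 to 0.26) crossed 0. Among the related genes, 93 of them kept unless another number is given, those called higher numbered 3 with the filter at the 70th percentile (84 kept). They numbered 3 with the floor at the 60th, 3 with the mean of probe sets, 12 at 1.5-fold and 0 at 3-fold. Those called lower numbered 6 without cross-matching probe sets (75 kept), 20 at 1.5-fold and 5 at 3-fold. The cause of these differences was not tested beyond what each setting changes by construction.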
